A study of Rattus norvegicus with 24 samples.

Results

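Male Sprague-Dawley rats that received the top dose of 17β-estradiol are described here, as the 3 male arrays at 10 µg/kg/day (replicates 10, 11 and 12) against the 3 male arrays at dose 0 (replicates 1, 2 and 3). They are 6 of the 24 arrays of the series and were chosen by the sex and dose in the labels. The series measured RNA from pairs of abdominal mammary glands on Affymetrix rat arrays, in both sexes at 4 doses. Estradiol was delivered by an osmotic pump under the skin from weaning on postnatal day 21 to postnatal day 33. The dose 0 rats are taken as the pump controls, and the labels do not say what their pumps held. Nor do they say whether 1 array is 1 animal, and the p-values then speak only for the spread among the arrays, which may be technical in part.

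Estradiol is the main ovarian estrogen. In the mammary gland it acts through estrogen receptor alpha in a subset of luminal cells of the ducts. These cells release amphiregulin, a ligand of the EGF receptor, and the stroma around the ducts answers with growth factors that drive the ducts into the fat pad. Male rats keep a ductal tree in a pad of adipocytes. Whole glands were measured, so more cells of a type and more RNA per cell cannot be told apart.

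Values are the deposited log values of each probe set, taken as log2 and centred by the submitters within each sex. A value of 0 is therefore near the middle of the male arrays, and no absolute level, sex or tissue label can be checked from them. Each probe set was tested with limma over all 24 arrays and called at a Benjamini-Hochberg adjusted p under 0.05. Differences are the mean at 10 minus the mean at 0 ± SE, and each probe set's adjusted p runs over all 31042 probe sets. For gene lists each gene counts once, through a single probe set.

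Several arrays stood apart in transcripts of other tissues. The mean of 29 hepatocyte genes was -0.17, -0.20 and -0.26 at 10, against -0.04, 1.21 and 2.31 at 0, so dose 0 replicates 2 and 3 were high in liver transcripts and dose 0 replicate 1 lay nearer the arrays at 10. On centred values this does not show that any array was free of them. For 28 skeletal muscle genes the means were 1.23, -1.02 and -1.92 at 10, against 1.44, -0.10 and -0.42 at 0, high on 1 array of each group. B cell genes gave -0.06, 0.85 and 0.62 at 10, against -1.75, 0.09 and -1.42 at 0, and T and NK cell genes -0.12, 0.80 and 0.76 at 10, against -1.64, 0.25 and -1.12 at 0. The difference between 3′ and 5′ beta-actin control probe sets, a sign of how whole the RNA was, was -0.02, 0.16 and 0.05 at 10, against -0.56, -0.06 and -0.28 at 0. The groups did not overlap in this measure, so it and dose cannot be told apart where they move together. The same difference for Gapdh was 0.01, -0.06 and -0.02 at 10, against -0.14, -0.07 and -0.03 at 0. For hexokinase it was -0.12, 0.14 and 0.12 at 10, against -0.29, -0.36 and -0.12 at 0. In both the groups overlapped, in hexokinase only through -0.121 at 10 and -0.1191 at 0. Both leaned the same way as beta-actin. A pair of other counts is therefore given for most gene groups. The first leaves out the arrays whose hepatocyte mean was above 1, which removes dose 0 replicates 2 and 3 and 1 female array, so that dose 0 replicate 1 stands alone, with its spread borrowed from the other groups. The other adds the beta-actin difference to the fit as a covariate.

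**Figure D1:**
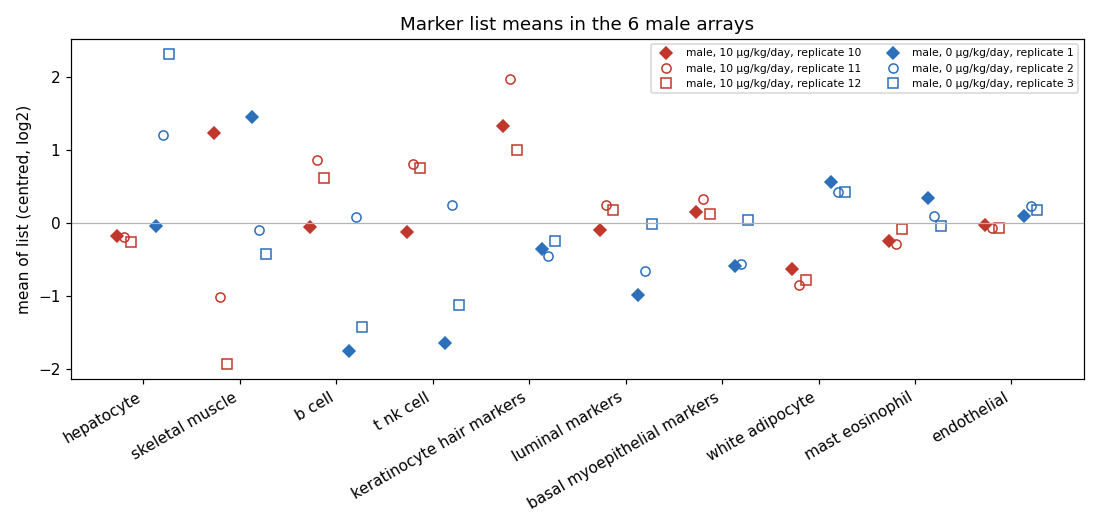
Mean centred log2 value of 10 marker gene lists on each of the 6 male arrays, with the arrays at 10 µg/kg/day beside those at 0. Hepatocyte means were above 1 on dose 0 replicates 2 and 3 only, and the white adipocyte means were below 0 on every array at 10 and above 0 on every array at 0.

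At 10, 5419 of 31042 probe sets passed the threshold (17.5%), 2425 of them higher (7.81%) and 2994 lower (9.64%). With 1 probe set a gene, 2840 of 14217 genes passed (20.0%), 1134 higher (7.98%) and 1706 lower (12%). A change of at least 2-fold was measured in 354 probe sets that rose (1.14%) and 392 that fell (1.26%). An unadjusted p under 0.05 was found in 9979 (32.1%). Groups that did not overlap were common whatever the call, with all 3 arrays at 10 above all 3 at 0 in 5658 probe sets (18.2%) and below them in 5870 (18.9%), and 5276 were both called and without overlap (17%). The median difference over all probe sets was -0.005. Of the 392 falls, 391 had dose 0 replicate 1 above all 3 arrays at 10, and of the 354 rises 351 had it below all 3. These sets were picked with replicate 1 among the controls. Both counts were thus close to fixed in advance and bear on no cause. Leaving out any single array kept 2167 probe sets called in every case. The count fell to 2685 without dose 0 replicate 1 (824 higher, 1861 lower). It was 5239 without dose 0 replicate 2 (2407 and 2832) and 4218 without dose 0 replicate 3 (1882 and 2336). Without replicate 10 at 10 it was 4707 (2105 and 2602). It fell to 2919 without replicate 11 at 10 (1046 and 1873) and to 3497 without replicate 12 at 10 (1311 and 2186). Array weights gave 8955 (4639 and 4316). With the beta-actin covariate 738 of 31042 probe sets passed, 240 higher and 498 lower. The list counts given below for that covariate, for array weights and with 1 array left out are to be read against these numbers. A lower or higher list count in any other fit does not by itself show a change particular to that list.

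The promoters of 3 genes with some of the largest rises are shown because each holds letters bound by a factor linked to the gene's known control. They are RefSeq windows on build GRCr8, from 250 bases before to 50 bases after the start site, written 5′ to 3′ on the gene's strand. Capitals mark the motif named with each. Areg lies at chr14:17265592-17265891, minus strand, and its capitals are a cyclic AMP response element. For Csn2, at chr14:20601574-20601873, plus strand, they are a STAT site, the motif of the factor that prolactin activates. Sprr1a lies at chr2:180752576-180752875, minus strand, and its capitals are a pair of AP-1 sites.
Areg: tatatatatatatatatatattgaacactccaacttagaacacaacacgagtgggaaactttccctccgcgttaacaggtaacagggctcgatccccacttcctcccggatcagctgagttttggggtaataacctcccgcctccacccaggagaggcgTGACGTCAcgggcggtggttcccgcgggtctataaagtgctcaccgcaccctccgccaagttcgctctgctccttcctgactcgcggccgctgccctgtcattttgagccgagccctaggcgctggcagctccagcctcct
Csn2: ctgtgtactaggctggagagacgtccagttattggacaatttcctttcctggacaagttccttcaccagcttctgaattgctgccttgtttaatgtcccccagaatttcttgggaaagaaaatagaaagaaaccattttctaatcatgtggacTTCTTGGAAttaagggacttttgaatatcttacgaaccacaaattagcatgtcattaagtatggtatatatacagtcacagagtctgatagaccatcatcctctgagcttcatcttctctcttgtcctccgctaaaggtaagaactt
Sprr1a: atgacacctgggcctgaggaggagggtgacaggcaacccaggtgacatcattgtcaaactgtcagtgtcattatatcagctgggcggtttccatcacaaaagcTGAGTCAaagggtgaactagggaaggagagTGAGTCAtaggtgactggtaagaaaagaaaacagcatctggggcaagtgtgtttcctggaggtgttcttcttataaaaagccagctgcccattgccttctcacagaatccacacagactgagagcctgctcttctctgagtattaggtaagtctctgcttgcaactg
The Areg match TGACGTCA begins at position -91 from the start site, the Csn2 match at -97, and the Sprr1a matches at -147 and -117. Both strands were searched for TGACGTCA (cyclic AMP response element), TTCNNNGAA (STAT), TGANTCA (AP-1), the full estrogen response element and GGTCA (its half-site). All but GGTCA read the same on both strands, and STAT and AP-1 matches can overlap. The half-site search and the TGACGTCA search were added with the results known, the second after the Areg window was read. Among 11700 genes with a window, 2.85% held TGACGTCA, 6.99% the STAT motif and 5.43% the AP-1 motif. AP-1 letters were in 18 of 167 windows of genes at least 2-fold higher (10.8%) and in 18 of 193 of those at least 2-fold lower (9.33%). The STAT motif was in 9 of the 167 (5.39%) and 8 of the 193 (4.15%). TGACGTCA was in 4 of the 167 (2.4%) and 4 of the 193 (2.07%). These STAT and TGACGTCA shares were below those of all genes. A full estrogen response element was in 0 of 920 windows of genes that rose and in 0 of 1382 of those that fell, against 2 of all 11700. Its half-site was in 32.7% of the windows of genes that rose, in 39.2% of those of genes that fell and in 38.3% of all. These windows cover the start site alone.

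Areg, which encodes amphiregulin, rose at 10. Its values were 3.02, 3.32 and 2.75 at 10, against -2.88, -2.10 and -1.99 at 0. All 3 arrays at 10 were far above every array at 0. The difference was 5.35 ± 0.44 (40.9-fold, 95% confidence interval 21.5 to 77.8, adjusted p = 1.03e-06). Clca1, a secreted regulator of chloride channels, gave 1.81, 3.24 and 3.08 at 10, against -2.34, -3.86 and -1.92 at 0. Its spread within groups was wider, and the groups did not overlap (5.41 ± 0.95, adjusted p = 0.000773).

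**Figure D2:**
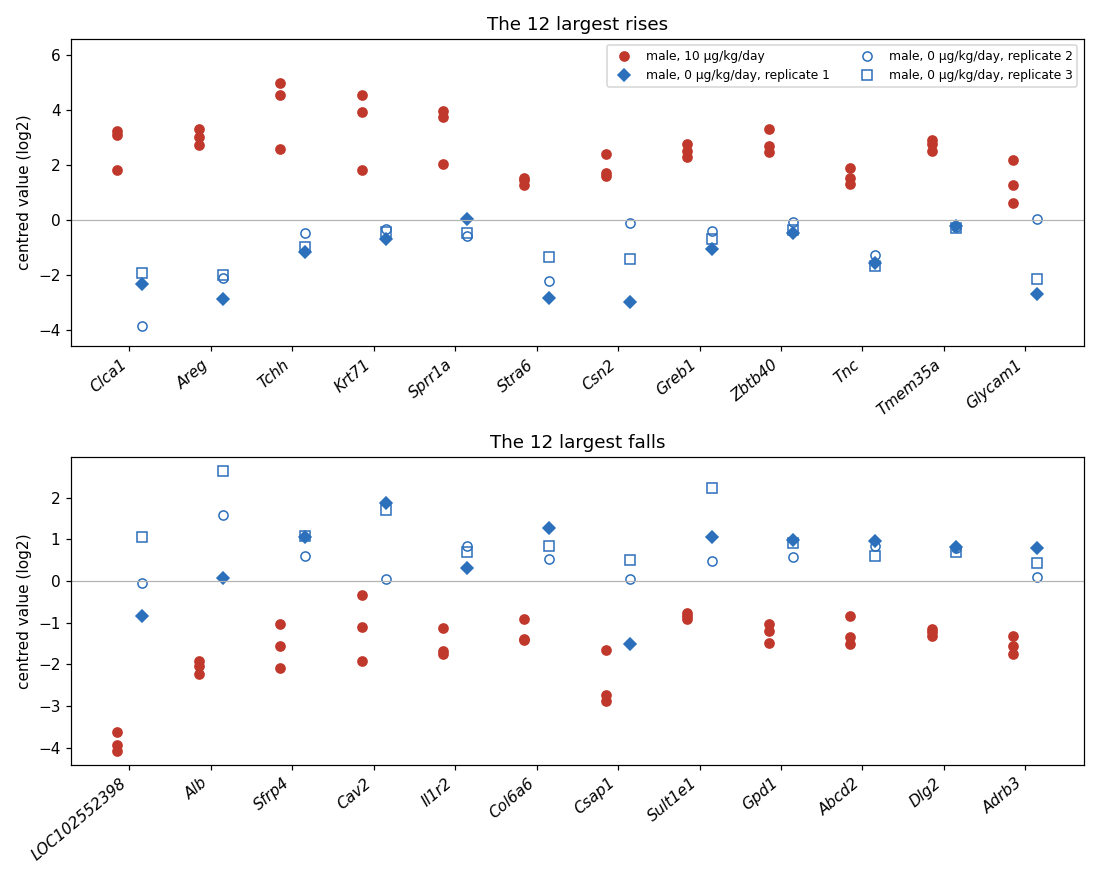
Centred log2 value of the 12 genes that rose most and the 12 that fell most between male arrays at 10 and at 0 µg/kg/day, each point 1 array. The genes were chosen for groups that do not overlap, and Areg and Clca1 have the widest separation among the rises.

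Of 29 estrogen receptor genes and known targets tested, 8 rose and 5 fell (27.6% and 17.2% of them, against 7.98% and 12% of all genes), with a median difference of 0.06 against -0.018 over all genes. Pgr, the progesterone receptor and a classical estrogen target, gave 1.65, 2.35 and 1.40 at 10, against -1.18, -1.08 and -1.13 at 0. Every array at 10 was above every array at 0 (2.93 ± 0.32, adjusted p = 1.36e-05). Greb1, a cofactor of estrogen receptor alpha, gave 2.78, 2.52 and 2.30 at 10, against -1.07, -0.41 and -0.70 at 0, again without overlap (3.26 ± 0.37, adjusted p = 1.59e-05). Only 1 of the 2 Greb1 probe sets passed. Rerg, a small GTPase named for its regulation by estrogen, rose by 2.17 ± 0.21 (adjusted p = 4.58e-06). Wnt4, a ligand downstream of the progesterone receptor, rose by 0.97 ± 0.22, and Ccnd1, cyclin D1, by 0.57 ± 0.19. Esr1, the gene of estrogen receptor alpha itself, gave -0.26, -0.12 and -0.15 at 10, against 0.98, 0.19 and 0.22 at 0. It fell by 0.64 ± 0.18 (adjusted p = 0.0175). Igf1, Ccn5, Ctsd and Gper1, a membrane estrogen receptor, also fell. Tff1, Tff3, Xbp1, Myc and Cxcl12 were among the 16 members that did not pass. Estrogen list counts became 6 higher and 6 lower without the arrays high in hepatocyte transcripts, and 4 higher and 2 lower with the beta-actin covariate. The call of Ccnd1 was lost without dose 0 replicate 1 or 2 or without replicate 11 or 12 at 10, that of Esr1 without dose 0 replicate 1 or without replicate 10 at 10.

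Among 18 EGF family ligands, receptors and regulators, 5 rose and 1 fell (27.8% and 5.56%, against 7.98% and 12% of all genes). Their median difference was 0.14. Besides Areg, the ligand Tgfa rose by 1.08 ± 0.23 and the ligand Ereg by 0.41 ± 0.11. Egfr, the receptor that amphiregulin binds, gave 1.15, 0.88 and 0.67 at 10, against -0.49, -0.46 and -0.36 at 0. Its lowest array at 10 was above its highest at 0 (1.33 ± 0.14, adjusted p = 1.1e-05), and 2 of its 3 probe sets passed. Lrig1, which restrains EGF receptor signalling, rose by 0.57 ± 0.12 (adjusted p = 0.0028). Nrg4, a neuregulin made by fat, fell by 0.72 ± 0.13 (adjusted p = 0.00105). Egf, Hbegf, Btc, Erbb2, Erbb3 and Erbb4 did not pass. EGF list counts became 4 higher and 1 lower without the arrays high in hepatocyte transcripts, and 2 higher and 0 lower with the beta-actin covariate. The call of Ereg was lost without dose 0 replicate 3 or without replicate 10 at 10.

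Luminal genes that passed were all higher. In the luminal list 8 of 23 genes rose and 0 fell (34.8% and 0%, against 7.98% and 12% of all genes). The median difference was 0.70. The luminal mean per array was -0.10, 0.24 and 0.18 at 10, against -0.98, -0.66 and -0.01 at 0, so the groups overlapped. Male arrays at 0.1 gave -0.38, 0.33 and 0.31, and those at 1 gave 0.30, 0.36 and 0.54, above every array at 10. Prlr, the prolactin receptor, gave 0.03, 0.42 and 0.23 at 10, against -1.39, -1.13 and -0.38 at 0. The groups did not overlap (1.19 ± 0.26, adjusted p = 0.00411), and 1 of its 3 probe sets passed. Gata3, a transcription factor of luminal cells, rose by 1.19 ± 0.32 (adjusted p = 0.0163). Krt19, Epcam, Cdh1, Muc1, Rab25 and St14 rose as well, by 0.74 ± 0.21 (St14) to 1.15 ± 0.35 (Cdh1). Krt8, Krt18, Foxa1, Elf5 and Kit did not pass. Over all probe sets 240 passed higher with the beta-actin covariate, against 2425 without it. The luminal median difference was 0.29 with that covariate. Luminal counts became 12 higher and 0 lower without the arrays high in hepatocyte transcripts, and 0 higher and 0 lower with the beta-actin covariate. Luminal rises numbered 1 without dose 0 replicate 1, 2 without replicate 11 at 10 or replicate 12 at 10, 3 without dose 0 replicate 2, 15 without dose 0 replicate 3. The call of Gata3 was lost without dose 0 replicate 1 or without replicate 11 at 10, those of Krt19, Epcam, Cdh1, Rab25 and St14 without dose 0 replicate 1 or 2 or without replicate 11 or 12 at 10. The call of Muc1 was lost without dose 0 replicate 1 or without replicate 12 at 10.

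Of 17 basal and myoepithelial genes, 6 rose and 1 fell (35.3% and 5.88%, against 7.98% and 12% of all genes). Their median was 0.29. Krt14, a keratin of basal cells, gave 0.97, 1.64 and 1.09 at 10, against -1.39, -1.19 and -0.49 at 0. It rose without overlap (2.26 ± 0.40, adjusted p = 0.00084). Krt17 rose by 1.89 ± 0.38, Krt5 by 1.86 ± 0.40, Tp63, the master factor of basal cells, by 1.76 ± 0.36 and Lamb3, a laminin chain of the basement membrane, by 1.25 ± 0.20. The genes of the contractile apparatus, Acta2, Myh11, Cnn1, Mylk and Tagln, did not pass. Markers of epidermis and hair follicle, given below, were also high on the arrays at 10. Whether gland or skin supplied the keratin, Tp63 and Lamb3 transcripts was not tested. Oxtr, the oxytocin receptor of myoepithelial cells, was the member that fell, with -0.27, -0.25 and -0.81 at 10, against 0.89, 0.57 and 1.0 at 0 (-1.26 ± 0.22, adjusted p = 0.000816). Basal counts became 7 higher and 1 lower without the arrays high in hepatocyte transcripts, and 1 higher and 0 lower with the beta-actin covariate.

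Markers of epidermis and hair follicle rose in 13 of 18 genes and fell in 0, with a median of 1.30. That is 72.2% and 0%, against 7.98% and 12% of all genes. Their mean per array was 1.32, 1.97 and 0.99 at 10, against -0.36, -0.45 and -0.25 at 0. High means were not confined to the top dose. The mean was 0.67 on male replicate 7 at 1. Among females it was 1.08 on dose 0 replicate 2, 1.39 on replicate 7 at 1 and 0.70 on replicate 5 at 0.1. Female arrays at 10 gave 0.28, -0.21 and -0.25, and the remaining arrays of both sexes lay lower than 0.67. Tchh, trichohyalin of the inner root sheath, gave 5.0, 4.57 and 2.59 at 10, against -1.18, -0.46 and -0.97 at 0 (4.92 ± 1.51, adjusted p = 0.0304). The arrays at 10 were widely spread, and all lay above those at 0. Krt71, a keratin of the same sheath, gave 4.57, 3.95 and 1.84 at 10, against -0.68, -0.33 and -0.45 at 0 (3.94 ± 1.16, adjusted p = 0.0249). Sprr1a, a cornified envelope protein whose promoter is shown above, gave 3.98, 3.75 and 2.03 at 10, against 0.05, -0.57 and -0.48 at 0 (3.59 ± 0.99, adjusted p = 0.0172). Lgals7, galectin-7 of stratified epithelia, gave 0.99, 1.41 and 1.23 at 10, against -1.15, -1.58 and -0.48 at 0 and passed whichever of the 6 arrays was left out (2.28 ± 0.33, adjusted p = 0.000131). Krt1, Krt10, Loricrin, Sbsn and Krtdap, genes of the outer epidermis, rose too, by 1.08 ± 0.34 (Krt1) to 1.64 ± 0.33 (Sbsn). Tchh, Krt71 and Sprr1a were also high on female dose 0 replicate 2, at 4.33, 3.39 and 2.67, centred among the females. How much skin each sample held was not tested. Epidermis and hair counts became 5 higher and 0 lower without the arrays high in hepatocyte transcripts, and 3 higher and 0 lower with the beta-actin covariate. Epidermis and hair rises numbered 7 without dose 0 replicate 1, dose 0 replicate 3 or replicate 11 at 10. The calls of Tchh and Krt71 were lost without dose 0 replicate 1 or 3 or without replicate 10 or 11 at 10, that of Krt1 without dose 0 replicate 1, 2 or 3 or without replicate 11 at 10. The call of Krt10 was lost without dose 0 replicate 1, 2 or 3 or without replicate 11 or 12 at 10, that of Krtdap without dose 0 replicate 1 or 3. The call of Loricrin was lost without dose 0 replicate 3 or without replicate 11 or 12 at 10, that of Sprr1a without replicate 10 or 11 at 10.

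The milk list had 6 rises and 2 falls among 20 genes (median 0.36). That is 30% and 10%, against 7.98% and 12% of all genes. Csn2, beta-casein, gave 1.62, 1.72 and 2.39 at 10, against -2.99, -0.11 and -1.41 at 0. Its groups did not overlap (3.41 ± 0.77, adjusted p = 0.00498), and this is the gene with the STAT letters printed above. Csn3, kappa-casein, rose by 1.75 ± 0.40 (adjusted p = 0.00606). Glycam1, a mucin of milk and of high endothelial venules, gave 0.62, 1.28 and 2.17 at 10, against -2.68, 0.05 and -2.14 at 0 (2.95 ± 0.83, adjusted p = 0.02). Over the dose 0 arrays Glycam1 ran in the order of the B cell and the T and NK cell means, and at 10 it did not. Which tissue supplied it was not tested. Aqp5, a water channel of glands, rose by 1.49 ± 0.30, and Olah, the enzyme that ends milk fatty acids early, by 1.5 ± 0.38. The milk genes Csn1s1, Lalba and Wap did not pass. Cidea, a lipid droplet protein of milk fat and of brown fat, fell by 1.04 ± 0.20. Milk gene counts became 7 higher and 1 lower without the arrays high in hepatocyte transcripts, and 0 higher and 0 lower with the beta-actin covariate. Milk gene rises numbered 3 without dose 0 replicate 1 or replicate 11 at 10. The call of Glycam1 was lost without dose 0 replicate 1 or 3 or without replicate 11 or 12 at 10, that of Olah without dose 0 replicate 1 or without replicate 11 at 10.

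Few cell cycle genes passed. Of 35, 3 rose and 0 fell (8.57% and 0%, against 7.98% and 12% of all genes), with a median difference of 0.31. The 3 were Mcm3, Mcm4 and Mcm7, subunits of the replicative helicase. Mcm7 gave 0.03, 0.23 and 0.27 at 10, against -0.62, -0.36 and -0.24 at 0 (0.59 ± 0.15, adjusted p = 0.0128), and Mcm3 rose by 0.80 ± 0.23 and Mcm4 by 0.51 ± 0.14. Mki67, Top2a, Ccnb1 and Cdk1 did not pass. Cell cycle counts became 1 higher and 0 lower without the arrays high in hepatocyte transcripts, and 0 higher and 0 lower with the beta-actin covariate. Cell cycle rises numbered 0 without dose 0 replicate 1, replicate 11 at 10 or replicate 12 at 10, 6 without replicate 10 at 10. The call of Mcm3 was lost without dose 0 replicate 1 or 3 or without replicate 11 or 12 at 10, those of Mcm4 and Mcm7 without dose 0 replicate 1 or without replicate 11 or 12 at 10.

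Signals between epithelium and stroma moved both ways. Of 30 Wnt pathway genes 7 rose and 5 fell (23.3% and 16.7%, against 7.98% and 12% of all genes), with a median of 0.23. Sfrp4, a secreted Wnt inhibitor, had the widest difference, with -1.04, -2.09 and -1.56 at 10, against 1.06, 0.61 and 1.08 at 0. Its groups did not overlap (-2.48 ± 0.33, adjusted p = 7.88e-05), and 1 of its 2 probe sets passed. The receptors moved apart from each other. Fzd4 fell by 1.48 ± 0.19, Fzd8 by 0.54 ± 0.11 and the co-receptor Lrp5 by 0.70 ± 0.13, while Fzd1 rose by 0.68 ± 0.16 and Lrp6 by 0.52 ± 0.14. The ligand Wnt5b rose by 0.96 ± 0.20. Axin2 and Lef1, targets of canonical Wnt signalling, did not pass. Wnt pathway counts became 6 higher and 5 lower without the arrays high in hepatocyte transcripts, and 0 higher and 3 lower with the beta-actin covariate. Wnt pathway rises numbered 4 without replicate 11 at 10. The call of Lrp6 was lost without dose 0 replicate 1 or 3 or without replicate 10 or 11 at 10.

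In the FGF, BMP and TGF-beta list 11 of 34 genes fell and 1 rose, with a median of -0.25. That is 32.4% and 2.94%, against 12% and 7.98% of all genes. Fgf7, a stromal growth factor for epithelium, gave -0.52, -0.72 and -0.65 at 10, against 0.83, 0.51 and 0.61 at 0. Each array at 10 was below each at 0 (-1.28 ± 0.17, adjusted p = 7.54e-05). Bmp4 fell by 1.28 ± 0.18 (adjusted p = 9.57e-05), Fgfr1 by 0.78 ± 0.11 (adjusted p = 0.000175) and Spry4, a feedback inhibitor of FGF signalling, by 0.72 ± 0.11. Id1 and Id3, targets of BMP signalling, fell by 0.76 ± 0.17 and 0.59 ± 0.14, and Nog and Fst, inhibitors of BMPs and activins, by 0.94 ± 0.23 and 0.97 ± 0.17. Tgfbr1 rose by 0.49 ± 0.14. Fgf10, Fgfr2 and Tgfb1 did not pass. FGF, BMP and TGF-beta counts became 1 higher and 10 lower without the arrays high in hepatocyte transcripts, and 0 higher and 3 lower with the beta-actin covariate. FGF, BMP and TGF-beta rises numbered 0 without dose 0 replicate 1, replicate 11 at 10 or replicate 12 at 10, 2 without dose 0 replicate 3. The call of Tgfbr1 was lost without dose 0 replicate 1 or without replicate 11 or 12 at 10, that of Nog without dose 0 replicate 3 or without replicate 11 at 10.

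Matrix genes also split. Of 35 collagens and other matrix genes 9 rose and 15 fell (25.7% and 42.9%, against 7.98% and 12% of all genes). The median was -0.17. Tnc, tenascin-C, a matrix glycoprotein of growing tissue, gave 1.9, 1.33 and 1.54 at 10, against -1.58, -1.28 and -1.67 at 0. Its groups were far apart (3.10 ± 0.38, adjusted p = 3.39e-05). Col12a1 rose by 1.06 ± 0.11 (adjusted p = 9.41e-06), in 1 of 3 probe sets. Col7a1 and Col17a1, which anchor epithelium to its base, rose by 0.92 ± 0.16 and 1.23 ± 0.32. Col15a1, of basement membranes in fat and vessels, gave -0.69, -0.97 and -0.89 at 10, against 0.88, 0.58 and 0.77 at 0, the reverse pattern (-1.59 ± 0.16, adjusted p = 5.61e-06). Col6a6, outside the list and among the largest falls, fell by 2.11 ± 0.20 (adjusted p = 2.64e-06). The fibrillar Col1a1 and Col1a2 fell by 0.29 ± 0.07 and 0.30 ± 0.07, and Col4a1 and Col4a2, the main chains of basement membrane, by 0.48 ± 0.10 and 0.48 ± 0.15. Matrix gene counts became 5 higher and 3 lower without the arrays high in hepatocyte transcripts, and 3 higher and 1 lower with the beta-actin covariate. Matrix gene falls numbered 7 without replicate 11 at 10. Among 23 proteases and inhibitors 6 rose and 4 fell (26.1% and 17.4%, against 7.98% and 12% of all genes). Mmp11 and Mmp3, stromal metalloproteases, rose by 1.59 ± 0.36 and 1.43 ± 0.38. Timp4, a metalloprotease inhibitor abundant in fat, fell by 1.43 ± 0.24 (adjusted p = 0.00051), while the inhibitor Timp1 rose by 0.58 ± 0.13 (adjusted p = 0.00392). Protease and inhibitor counts became 2 higher and 3 lower without the arrays high in hepatocyte transcripts, and 0 higher and 0 lower with the beta-actin covariate. Protease and inhibitor falls numbered 2 without replicate 11 at 10. The call of Col17a1 was lost without dose 0 replicate 1 or without replicate 11 at 10, that of Col4a2 without dose 0 replicate 1 or 3 or without replicate 10, 11 or 12 at 10. The call of Mmp3 was lost without replicate 10 at 10, that of Col1a1 without replicate 11 or 12 at 10.

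Fat cell genes fell together at 10. Of 29 white adipocyte genes 26 fell and 0 rose, that is 89.7% against 12% of all genes, with a median of -1.36. Their mean per array was -0.63, -0.85 and -0.78 at 10, against 0.57, 0.42 and 0.43 at 0. Gpd1, which makes the glycerol backbone of fat, gave -1.04, -1.49 and -1.19 at 10, against 0.99, 0.58 and 0.91 at 0. All 3 arrays at 10 were below all 3 at 0 (-2.07 ± 0.21, adjusted p = 6.68e-06). Adrb3, an adrenergic receptor that drives fat breakdown, gave -1.57, -1.76 and -1.32 at 10, against 0.79, 0.10 and 0.43 at 0, with the same separation (-1.99 ± 0.20, adjusted p = 6.81e-06). Trarg1, a partner of the insulin-responsive glucose transporter, fell by 1.42 ± 0.15 (adjusted p = 7.07e-06) and Dgat1, which makes triglyceride, by 1.18 ± 0.12 (adjusted p = 9.31e-06). Pparg, the master regulator of fat cells, fell by 1.54 ± 0.18, Lep, leptin, by 1.40 ± 0.24, Adipoq, adiponectin, by 0.88 ± 0.13 and Plin1, the coat of lipid droplets, by 1.24 ± 0.17. Cebpb, Cfd and Gpam did not pass. White adipocyte counts became 0 higher and 23 lower without the arrays high in hepatocyte transcripts, and 0 higher and 17 lower with the beta-actin covariate.

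**Figure D3:**
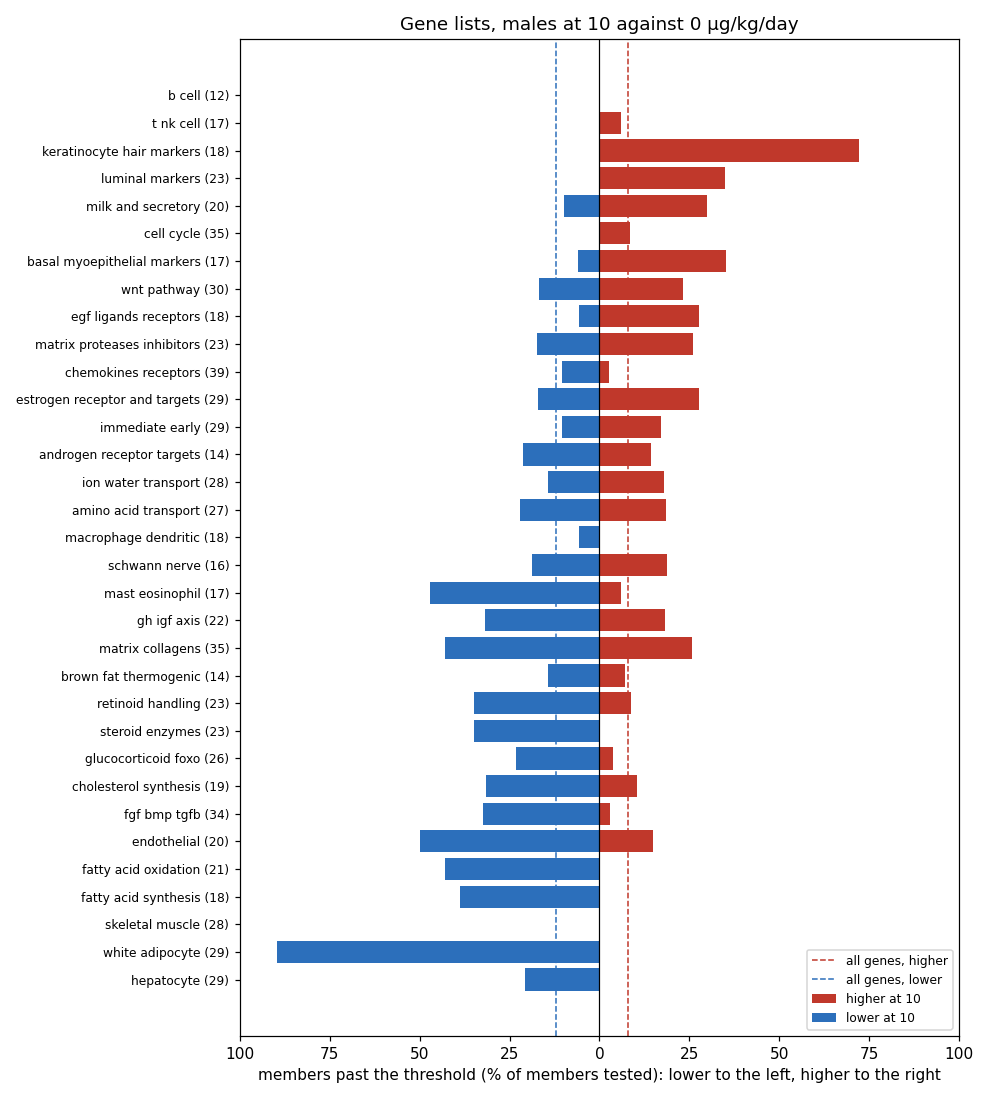
Share of tested members called higher or lower in male arrays at 10 against 0 µg/kg/day, for each gene list, in percent, with dashed lines at the shares over all genes (7.98% higher, 12% lower). White adipocyte genes have the largest share lower among the lists drawn, and keratinocyte and hair genes the largest share higher.

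In 2 fatty acid lists the genes that passed were all lower. Fatty acid synthesis had 7 falls and 0 rises in 18 genes (median -0.70), and fatty acid oxidation 9 falls and 0 rises in 21 (median -0.47). The falls were 38.9% and 42.9% of the members, against 12% of all genes, and 7.98% of all genes rose. Acaca, acetyl-CoA carboxylase, fell by 1.41 ± 0.39, Thrsp, a lipogenic regulator, by 1.40 ± 0.30 and Srebf1, which drives lipogenic genes, by 0.70 ± 0.17. Fasn, Scd and Acly did not pass. In oxidation, Etfdh fell by 0.86 ± 0.18 and Decr1 by 0.68 ± 0.13 (adjusted p = 0.00119). Synthesis counts became 0 higher and 1 lower without the arrays high in hepatocyte transcripts, and 0 higher and 0 lower with the beta-actin covariate. Synthesis falls numbered 3 without replicate 11 at 10, 4 without dose 0 replicate 2. Oxidation counts became 0 higher and 6 lower without the arrays high in hepatocyte transcripts, and 0 higher and 1 lower with the beta-actin covariate. Oxidation falls numbered 5 without dose 0 replicate 1 or replicate 12 at 10. Cholesterol synthesis gave 2 rises and 6 falls in 19 genes (10.5% and 31.6%, against 7.98% and 12% of all genes). Insig1, the sterol sensor that holds back this pathway, fell by 1.23 ± 0.25 (adjusted p = 0.00286), and Tm7sf2, a sterol reductase, rose by 0.50 ± 0.10 (adjusted p = 0.00177). Cholesterol list counts became 3 higher and 2 lower without the arrays high in hepatocyte transcripts, and 1 higher and 0 lower with the beta-actin covariate. Cholesterol list rises numbered 1 without dose 0 replicate 1, dose 0 replicate 2, replicate 11 at 10 or replicate 12 at 10. Among 14 brown fat and thermogenic genes 1 rose and 2 fell (7.14% and 14.3%, against 7.98% and 12% of all genes), and Ucp1, the uncoupling protein that defines brown fat, did not pass. Brown fat counts became 0 higher and 2 lower without the arrays high in hepatocyte transcripts, and 0 higher and 1 lower with the beta-actin covariate. Brown fat rises numbered 0 without dose 0 replicate 1, dose 0 replicate 3, replicate 10 at 10 or replicate 11 at 10. The call of Srebf1 was lost without dose 0 replicate 1, that of Acaca without dose 0 replicate 2 or without replicate 11 at 10.

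Endothelial genes fell in 10 of 20 and rose in 3 (median -0.31). That is 50% and 15%, against 12% and 7.98% of all genes. Sox17, a factor of arterial endothelium, gave -0.19, -1.03 and -0.66 at 10, against 0.93, 0.45 and 0.42 at 0. Its groups did not overlap (-1.23 ± 0.23, adjusted p = 0.00124), and all 3 of its probe sets passed. Esam and Sox18 fell by 0.77 ± 0.13 and 0.68 ± 0.11, and Nos3, endothelial nitric oxide synthase, by 1.05 ± 0.23. The 3 that rose were Prox1, Lyve1 and Ccl21, genes of lymphatic vessels, by 1.26 ± 0.26, 0.35 ± 0.12 and 1.61 ± 0.50. Endothelial counts became 2 higher and 4 lower without the arrays high in hepatocyte transcripts, and 0 higher and 3 lower with the beta-actin covariate. Endothelial rises numbered 1 without dose 0 replicate 1, dose 0 replicate 3, replicate 11 at 10 or replicate 12 at 10. The call of Lyve1 was lost without any single one of the 6 arrays, that of Ccl21 without dose 0 replicate 1 or 3 or without replicate 11 or 12 at 10.

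In a list of mast cell and eosinophil genes, called the mast cell list here, 8 of 17 fell and 1 rose. That is 47.1% and 5.88%, against 12% and 7.98% of all genes, and the median difference was -0.13. Ms4a2, a chain of the IgE receptor, gave -0.80, -0.80 and -0.51 at 10, against 0.79, 0.40 and 0.50 at 0. Both of its probe sets passed (-1.26 ± 0.19, adjusted p = 0.000204). Hdc, which makes histamine, fell by 1.11 ± 0.16 (adjusted p = 0.000133), and the tryptases Tpsb2 and Tpsab1 by 1.10 ± 0.17 and 1.37 ± 0.22. Il1rl1, the IL-33 receptor, rose by 1.19 ± 0.34. Mast cell counts became 0 higher and 8 lower without the arrays high in hepatocyte transcripts, and 0 higher and 3 lower with the beta-actin covariate. Mast cell rises numbered 0 without dose 0 replicate 2, dose 0 replicate 3, replicate 10 at 10, replicate 11 at 10 or replicate 12 at 10 and falls numbered 5 without dose 0 replicate 1. No B cell gene passed among 12, although their median difference was 1.45, and 1 of 17 T and NK cell genes did, with a median of 1.35. The T and NK share higher was 5.88%, against 7.98% of all genes. The B cell gene Pou2af1 gave -0.01, 1.08 and 0.73 at 10, against -3.50, 0.01 and -2.15 at 0, with overlapping groups (2.48 ± 0.93, adjusted p = 0.0737). Gzma, a granzyme of killer cells, rose by 1.22 ± 0.34. B cell counts became 1 higher and 0 lower without the arrays high in hepatocyte transcripts, and 0 higher and 0 lower with the beta-actin covariate. B cell rises numbered 8 without dose 0 replicate 2. T and NK cell counts became 0 higher and 0 lower without the arrays high in hepatocyte transcripts, and 0 higher and 0 lower with the beta-actin covariate. T and NK cell rises numbered 0 without dose 0 replicate 1 or replicate 11 at 10, 6 without dose 0 replicate 2. Array weights gave 10 B cell and 15 T and NK cell rises. Of 18 macrophage and dendritic genes 1 passed, the integrin Itgam, which fell by 0.44 ± 0.14 (0% and 5.56%, against 7.98% and 12% of all genes). Macrophage and dendritic counts became 0 higher and 2 lower without the arrays high in hepatocyte transcripts, and 0 higher and 0 lower with the beta-actin covariate. Macrophage and dendritic falls numbered 0 without dose 0 replicate 1, dose 0 replicate 2, replicate 10 at 10 or replicate 11 at 10, 2 without dose 0 replicate 3. Among 39 chemokines and receptors 1 rose and 4 fell (2.56% and 10.3%, against 7.98% and 12% of all genes). Cxcl14, an epithelial and stromal chemokine, gave -0.91, -1.12 and -1.25 at 10, against 0.60, 0.43 and 0.19 at 0 (-1.5 ± 0.19, adjusted p = 5.09e-05), and Cxcr2, a neutrophil receptor, fell by 1.14 ± 0.16 (adjusted p = 0.000125). Chemokine and receptor counts became 4 higher and 4 lower without the arrays high in hepatocyte transcripts, and 0 higher and 2 lower with the beta-actin covariate. Chemokine and receptor rises numbered 0 without dose 0 replicate 1, replicate 11 at 10 or replicate 12 at 10, 2 without dose 0 replicate 3, 7 without dose 0 replicate 2. The call of Gzma was lost without dose 0 replicate 1 or without replicate 11 at 10, that of Itgam without dose 0 replicate 1 or 2 or without replicate 10 or 11 at 10. The call of Il1rl1 was lost without dose 0 replicate 2 or 3 or without replicate 10, 11 or 12 at 10.

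Enzymes that handle steroids fell in 8 of 23 and rose in 0 (median -0.22). That is 34.8% and 0%, against 12% and 7.98% of all genes. Sult1e1, the sulfotransferase that inactivates estrogens, gave -0.76, -0.83 and -0.92 at 10, against 1.05, 0.47 and 2.22 at 0. Every array at 10 was below every array at 0 (-2.08 ± 0.33, adjusted p = 0.00035). Sts, which frees estrogens from their sulfates, fell too, by 0.99 ± 0.13 (adjusted p = 7.88e-05). Hsd11b1, which regenerates active glucocorticoid, fell by 0.91 ± 0.15 (adjusted p = 0.000538) and Sult1a1 by 1.77 ± 0.30 (adjusted p = 0.000557). Cyp19a1, aromatase, and Hsd17b1 did not pass. Steroid enzyme counts became 0 higher and 6 lower without the arrays high in hepatocyte transcripts, and 0 higher and 2 lower with the beta-actin covariate. Of 14 androgen receptor targets, 2 rose and 3 fell (14.3% and 21.4%, against 7.98% and 12% of all genes). Sord, sorbitol dehydrogenase, fell by 0.71 ± 0.10 (adjusted p = 0.000151), and Tmprss2, a serine protease, rose by 1.11 ± 0.32 (adjusted p = 0.0235). Androgen target counts became 2 higher and 3 lower without the arrays high in hepatocyte transcripts, and 0 higher and 2 lower with the beta-actin covariate. Androgen target rises numbered 0 without dose 0 replicate 1 or replicate 12 at 10, 1 without dose 0 replicate 2 or replicate 11 at 10. The call of Tmprss2 was lost without dose 0 replicate 1 or without replicate 11 or 12 at 10.

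The growth hormone and IGF list had 4 rises and 7 falls in 22 genes (median -0.13). That is 18.2% and 31.8%, against 7.98% and 12% of all genes. Igf1, a stromal mediator of growth hormone and estrogen in the gland, gave -0.56, -0.75 and -0.83 at 10, against 1.09, 0.33 and 0.49 at 0. It fell in all 3 of its probe sets (-1.35 ± 0.19, adjusted p = 0.000119). Ghr, the growth hormone receptor, fell by 1.82 ± 0.30 (adjusted p = 0.000508), and the binding proteins Igfbp3 and Igfbp5 by 1.36 ± 0.24 and 1.17 ± 0.25. Igfbp2 rose by 1.17 ± 0.34 and Igf1r, the IGF1 receptor, by 0.48 ± 0.14. Growth hormone and IGF counts became 3 higher and 5 lower without the arrays high in hepatocyte transcripts, and 0 higher and 2 lower with the beta-actin covariate. Growth hormone and IGF rises numbered 0 without dose 0 replicate 1, replicate 11 at 10 or replicate 12 at 10, 2 without dose 0 replicate 3. The call of Igfbp2 was lost without dose 0 replicate 1 or 2 or without replicate 11 or 12 at 10, that of Igf1r without dose 0 replicate 1 or 3 or without replicate 11 or 12 at 10.

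Of 26 glucocorticoid and FOXO targets 6 fell and 1 rose (23.1% and 3.85%, against 12% and 7.98% of all genes). Dusp1, a phosphatase that ends MAP kinase signals, gave -0.77, -0.72 and -0.96 at 10, against 1.42, 1.03 and 0.94 at 0, without overlap (-1.95 ± 0.22, adjusted p = 1.67e-05). Deptor, an mTOR inhibitor, fell by 1.29 ± 0.18 (adjusted p = 0.000107) and Klf9 by 0.98 ± 0.16 (adjusted p = 0.000538), Klf9 in 1 of 3 probe sets. Glucocorticoid and FOXO counts became 1 higher and 3 lower without the arrays high in hepatocyte transcripts, and 0 higher and 2 lower with the beta-actin covariate. Glucocorticoid and FOXO rises numbered 0 without dose 0 replicate 1, replicate 11 at 10 or replicate 12 at 10 and falls numbered 3 without dose 0 replicate 1, replicate 11 at 10 or replicate 12 at 10. Immediate early genes gave 5 rises and 3 falls in 29 (17.2% and 10.3%, against 7.98% and 12% of all genes). Egr2, a zinc finger factor induced by growth signals and used by Schwann cells, gave 1.2, 0.98 and 1.04 at 10, against -1.53, -1.52 and -1.04 at 0. It rose (2.44 ± 0.22, adjusted p = 1.8e-06), in 1 of 2 probe sets. Egr1 rose by 0.78 ± 0.21, Atf3 by 1.0 ± 0.29 and Gadd45b by 1.31 ± 0.24, while Fos, Jun and Myc did not pass. Immediate early counts became 3 higher and 1 lower without the arrays high in hepatocyte transcripts, and 1 higher and 1 lower with the beta-actin covariate. Immediate early rises numbered 2 without replicate 11 at 10, 3 without replicate 12 at 10. The call of Egr1 was lost without dose 0 replicate 2 or without replicate 11 at 10, that of Atf3 without dose 0 replicate 2 or 3 or without replicate 10, 11 or 12 at 10.

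Retinoid genes gave 2 rises and 8 falls in 23 (median -0.22). That is 8.7% and 34.8%, against 7.98% and 12% of all genes. Stra6, the membrane receptor for retinol binding protein, gave 1.45, 1.54 and 1.28 at 10, against -2.85, -2.23 and -1.34 at 0. It stood among the largest rises of all genes (3.57 ± 0.47, adjusted p = 6.47e-05), and 3 of its 5 probe sets passed. Rbp4, the circulating retinol carrier that Stra6 binds, fell by 1.36 ± 0.18. Rbp7 fell by 1.41 ± 0.16 (adjusted p = 1.81e-05), Rarb, a retinoic acid receptor, by 0.92 ± 0.12 (adjusted p = 8.18e-05) and Rarres2, chemerin, by 0.85 ± 0.11 (adjusted p = 6.03e-05). Crabp2, a cellular retinoic acid carrier, rose by 0.60 ± 0.20. Retinoid counts became 2 higher and 5 lower without the arrays high in hepatocyte transcripts, and 1 higher and 4 lower with the beta-actin covariate. Retinoid rises numbered 1 without dose 0 replicate 1, dose 0 replicate 2, replicate 11 at 10 or replicate 12 at 10 and falls numbered 5 without dose 0 replicate 1 or replicate 11 at 10. The call of Crabp2 was lost without dose 0 replicate 1 or 2 or without replicate 11 or 12 at 10.

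Transport genes moved in both directions. In 27 amino acid transporters 5 rose and 6 fell (18.5% and 22.2%, against 7.98% and 12% of all genes). Slc1a3, a glutamate transporter, gave -0.71, -0.68 and -0.85 at 10, against 1.02, 0.64 and 0.79 at 0 (-1.57 ± 0.19, adjusted p = 3.6e-05), with 2 of 3 probe sets passing. Slc1a5 fell by 0.83 ± 0.13, Slc36a2 by 1.04 ± 0.17, and Slc7a7 rose by 0.74 ± 0.14. Amino acid transporter counts became 4 higher and 4 lower without the arrays high in hepatocyte transcripts, and 1 higher and 3 lower with the beta-actin covariate. Amino acid transporter rises numbered 3 without dose 0 replicate 1. In 28 ion and water transport genes 5 rose and 4 fell (17.9% and 14.3%, against 7.98% and 12% of all genes). Aqp7, the glycerol channel of adipocytes, fell by 1.70 ± 0.19 (adjusted p = 1.64e-05), Aqp1, a channel of vessels, by 1.04 ± 0.19 and Car3, a carbonic anhydrase abundant in fat, by 0.92 ± 0.10 (adjusted p = 1.16e-05). Scnn1a and Scnn1g, subunits of the epithelial sodium channel, rose by 0.75 ± 0.23 and 0.75 ± 0.23. Ion and water counts became 4 higher and 5 lower without the arrays high in hepatocyte transcripts, and 1 higher and 2 lower with the beta-actin covariate. Ion and water rises numbered 2 without dose 0 replicate 1, dose 0 replicate 2 or replicate 11 at 10, 3 without replicate 10 at 10 or replicate 12 at 10. Among 16 Schwann cell and nerve genes 3 rose and 3 fell (18.8% and 18.8%, against 7.98% and 12% of all genes). S100b, which glia and adipocytes make, fell by 1.34 ± 0.17 (adjusted p = 5.15e-05). Nerve counts became 2 higher and 4 lower without the arrays high in hepatocyte transcripts, and 1 higher and 1 lower with the beta-actin covariate. The call of Scnn1a was lost without dose 0 replicate 1 or 2 or without replicate 10, 11 or 12 at 10, that of Scnn1g without dose 0 replicate 1 or 2 or without replicate 11 or 12 at 10.

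Markers of skeletal muscle and of liver were read the same way, and where their transcripts came from was not tested. None of 28 skeletal muscle genes passed with limma, at a median of -0.88, and 0 had an unadjusted p under 0.05. Of 29 hepatocyte genes 6 fell and 0 rose (20.7% and 0%, against 12% and 7.98% of all genes), at a median of -1.46. Alb, albumin, gave -1.91, -2.03 and -2.24 at 10, against 0.08, 1.59 and 2.63 at 0. Dose 0 replicate 3, the array with the highest hepatocyte mean, was 2.63, and dose 0 replicate 1 was also above the arrays at 10 (-3.49 ± 0.68, adjusted p = 0.0017). Vtn, vitronectin, fell by 1.46 ± 0.18 (adjusted p = 3.82e-05). Hepatocyte counts became 0 higher and 3 lower without the arrays high in hepatocyte transcripts, and 0 higher and 2 lower with the beta-actin covariate. Hepatocyte falls numbered 3 without dose 0 replicate 3 or replicate 11 at 10, 19 without dose 0 replicate 1. Array weights gave 25 falls.

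Further genes outside these lists stood among the largest changes. Zbtb40, a zinc finger protein, gave 2.69, 3.32 and 2.47 at 10, against -0.46, -0.07 and -0.35 at 0. The groups were well apart (3.12 ± 0.19, adjusted p = 3.06e-08), in 1 of 2 probe sets. Tmem35a, a membrane protein that helps assemble acetylcholine receptors, gave 2.78, 2.52 and 2.93 at 10, against -0.22, -0.27 and -0.30 at 0 (3.0 ± 0.34, adjusted p = 1.47e-05). LOC102552398, which has no named function in the annotation, gave -4.07, -3.94 and -3.63 at 10, against -0.84, -0.06 and 1.06 at 0, the widest fall (-3.93 ± 0.42, adjusted p = 9.97e-06). Cav2, a caveolin of fat cells and endothelium, fell by 2.33 ± 0.59 in 3 of 4 probe sets. Abcd2, a peroxisomal fatty acid transporter, fell by 2.02 ± 0.22 (adjusted p = 9.97e-06), Dlg2, a scaffold protein, by 1.99 ± 0.21 (adjusted p = 9.88e-06) and Il1r2, a decoy receptor for interleukin-1, by 2.14 ± 0.44 (adjusted p = 0.00274). Csap1 gave -2.73, -1.65 and -2.87 at 10, against -1.51, 0.04 and 0.51 at 0. Its groups nearly touched (-2.09 ± 0.51, adjusted p = 0.00826), and 5 of the 10 other fits lost it. The call of Cav2 was lost without dose 0 replicate 1 or without replicate 11 at 10.

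The top dose was also set against the next lower one, 1 µg/kg/day, in the same sex. Here 120 of 31042 probe sets passed (0.387%), 55 higher (0.177%) and 65 lower (0.209%), and 2920 had an unadjusted p under 0.05. Without replicates 10, 11 and 12 at 10 the calls numbered 66, 36 and 34. Zbtb40 had the smallest adjusted p of the named genes. Its means over the doses were -0.29 at 0, -0.09 at 0.1, -0.03 at 1 and 2.83 at 10, so the top dose stood apart from the other 3 (10 minus 1, 2.86 ± 0.19, adjusted p = 1.43e-07). Tmem35a followed the same course, with -0.26 at 0, -0.20 at 0.1, 0.13 at 1 and 2.74 at 10 (10 minus 1, 2.61 ± 0.34, adjusted p = 0.00146). Spink8, a secreted protease inhibitor, rose at 10 over 1 by 2.31 ± 0.31 (adjusted p = 0.00179). For Areg the means were -2.32 at 0, -1.0 at 0.1, 0.86 at 1 and 3.03 at 10, higher at each dose, and 10 exceeded 1 by 2.17 ± 0.44 (adjusted p = 0.0415). Greb1 exceeded it by 2.0 ± 0.37 (adjusted p = 0.0217) and Rerg by 1.06 ± 0.21 (adjusted p = 0.034). Clca1 gave -2.70 at 0, -2.18 at 0.1, 1.73 at 1 and 2.71 at 10, and 10 against 1 did not pass (0.98 ± 0.95, adjusted p = 0.825). The same held for Pgr, with -1.13 at 0, -0.57 at 0.1, 0.62 at 1 and 1.80 at 10 (10 minus 1, 1.18 ± 0.32, adjusted p = 0.144), and for Csn2, with -1.5 at 0, -0.17 at 0.1, 0.96 at 1 and 1.91 at 10 (10 minus 1, 0.95 ± 0.77, adjusted p = 0.777). Among genes lower at 10, LOC102552398 differed from 1 by -4.03 ± 0.42 (adjusted p = 0.000171) and Col6a6 by -1.08 ± 0.20 (adjusted p = 0.0208). Pcdh10, a protocadherin, was lower at 10 than at 1 (-1.58 ± 0.24, adjusted p = 0.00492) although it did not pass against 0 (0.44 ± 0.24, adjusted p = 0.209), and so was Tmem150c (-1.31 ± 0.27, adjusted p = 0.0437), which did not pass against 0 either (-0.10 ± 0.27, adjusted p = 0.829). Of the white adipocyte list, 2 of 29 genes were lower at 10 than at 1, against 0.309% of all genes. A p that misses the threshold does not show that the doses act alike.

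**Figure D4:**
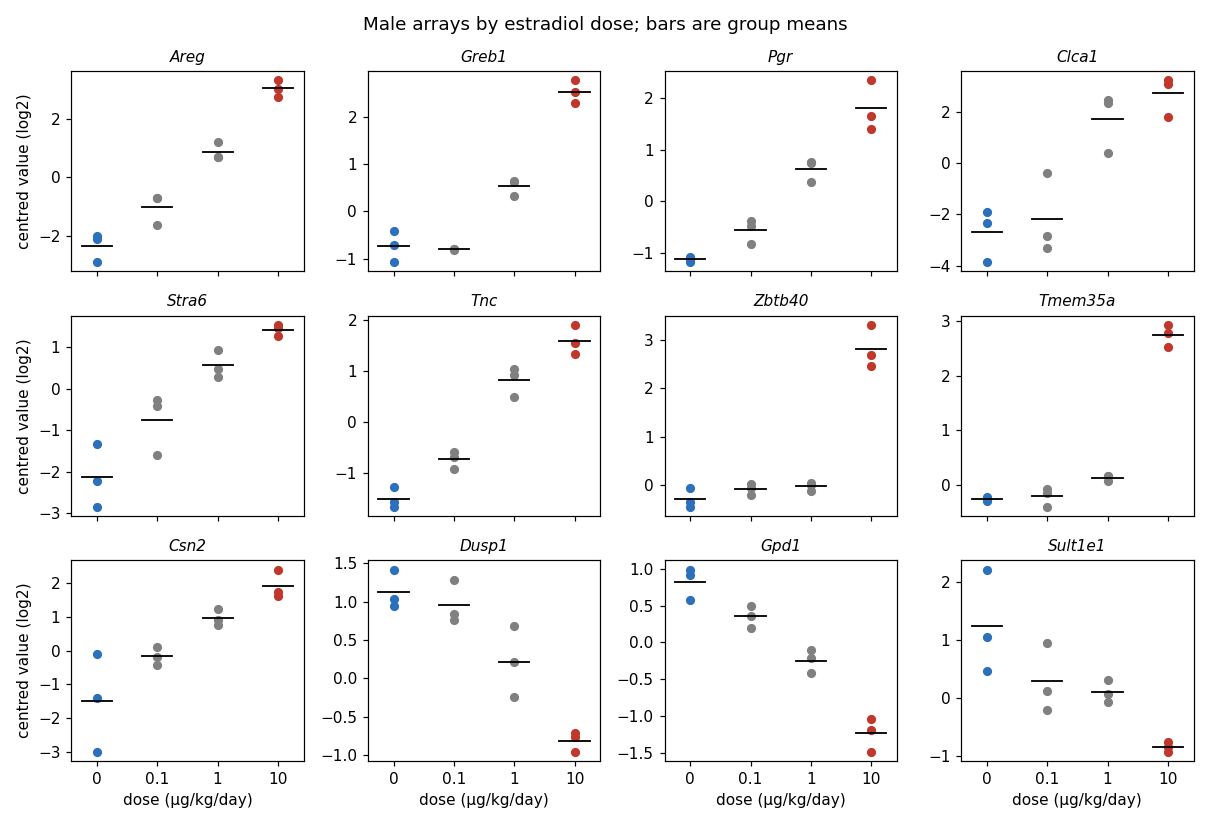
Centred log2 value of 12 genes on the male arrays at 0, 0.1, 1 and 10 µg/kg/day, each point 1 array and each bar a group mean. Zbtb40 and Tmem35a are high at 10 alone, while Areg and Pgr already stand higher at 1 than at 0.

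The male difference at 10 was compared with the female one by the interaction, the male difference minus the female difference. It passed in 397 probe sets (1.28%), 163 higher (0.525%) and 234 lower (0.754%), and 5908 had an unadjusted p under 0.05. Calls dropped to 76 without male dose 0 replicate 1, to 196 without male dose 0 replicate 3, and to 206, 172 and 147 without male replicates 10, 11 and 12 at 10. Areg had the widest interaction among the named genes that passed, with a male difference of 5.35 and a female difference of 0.20, which is an interaction of 5.15 ± 0.63 (adjusted p = 0.000652). Tnc showed the same order, with 3.10 in males and -0.01 in females (3.11 ± 0.54, adjusted p = 0.012). Stra6 had a male difference of 3.57 and a female one of 0.73 (2.83 ± 0.66, adjusted p = 0.0405), and Egr2 2.44 in males and 0.09 in females (2.35 ± 0.30, adjusted p = 0.000972). Sult1e1 fell in males (-2.08) and was 0.34 in females (-2.42 ± 0.47, adjusted p = 0.0218). Deptor had a male difference of -1.29 against 0.71 in females (-2.0 ± 0.25, adjusted p = 0.000882). Csn2 (0.97 ± 1.08, adjusted p = 0.658), Pgr (1.51 ± 0.46, adjusted p = 0.0999), Greb1 (1.69 ± 0.52, adjusted p = 0.102) and Adrb3 (-0.15 ± 0.29, adjusted p = 0.815) did not pass this test. Of 29 white adipocyte genes, 1 had an interaction that passed and was negative, against 1.02% of all genes. In the milk list 3 of 20 genes had a negative interaction that passed and 0 a positive one. The median interaction of that list was -0.70. A female array at 0 was high in hepatocyte transcripts too.

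**Figure D5:**
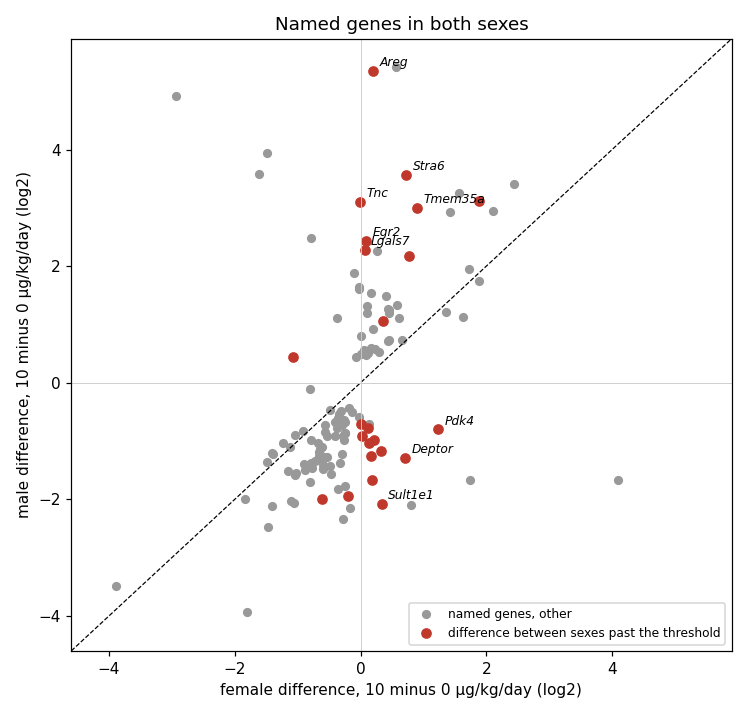
Difference between 10 and 0 µg/kg/day in female arrays (horizontal axis) and in male arrays (vertical axis), in log2 units, each point a named gene, with those whose interaction passed in red. Areg lies high on the male axis and near 0 on the female axis, and Adrb3 lies close to the diagonal.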

How the data were processed

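The table the authors deposited holds 1 log value, taken here as log2, for each of 31099 probe sets and 24 arrays. GCOS is named in the submitters' processing notes with no role or version. How values were summarized, normalized and centred, and in which log base, is not given in the sources used here. Within a sex the values of 1 probe set spanned at most 7.52, so fold changes hold only if the base is 2, while tests hold for any base. In 41.9% of probe sets the male values nearest 0 on either side were equal and opposite (tolerance 2e-06), a mark of centring within a sex. All values were present, and no arrays were duplicates. Arrays give no read depth, so their number limits the precision.

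Of these probe sets 57 controls were left out and 31042 tested with limma 3.58.1 in R 4.3.3: 8 group means over 24 arrays (16 residual and 2.95 prior degrees of freedom), eBayes and Benjamini-Hochberg adjustment at 0.05. The code was tested on simulated data. By the platform annotation 20826 probe sets had 1 gene, 436 several and 9780 none. A gene in a list was represented by its most variable probe set, by SD about the sex mean over the 18 arrays outside the comparison. Of 855 entries in 33 lists 772 were matched, 7 of them by an older symbol. Genes were named by rule: the 12 largest rises and falls without overlap, up to 4 members of each list with the smallest adjusted p, 8 genes always given, and the 5 largest differences each way for the other 2 comparisons. Other members of a list are given as examples of it, chosen after their values were seen. Members, lists and rules were chosen with earlier results of these data known, so no pattern already shown by them is independent support. Groups came from the sample titles. Other fits covered array weights, robust eBayes, quantile normalization, fewer arrays, a filter, and liver, muscle and beta-actin covariates.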

Additional observations from a re-analysis of the deposited data

Results flagged for a closer look

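The difference between 10 and 0 departed from the female difference in 23 of 133 named genes, tested by the interaction of sex and dose at an adjusted p under 0.05. Over all probe sets 1.28% passed. Some genes were named for a large interaction and others for their male difference, so the count of 23 is partly fixed by that choice. In 10 of them the male difference was above the female one. Areg differed by 5.35 in males and 0.20 in females, an interaction of 5.15 ± 0.63, and Col12a1 differed by 1.06 in males and 0.36 in females, an interaction of 0.70 ± 0.16. Egr2 differed by 2.44 in males and 0.09 in females, an interaction of 2.35 ± 0.30, and Lgals7 differed by 2.28 in males and 0.07 in females, an interaction of 2.21 ± 0.46. Pcdh10 differed by 0.44 in males and -1.07 in females, an interaction of 1.51 ± 0.33, and Rerg differed by 2.17 in males and 0.77 in females, an interaction of 1.40 ± 0.30. Stra6 differed by 3.57 in males and 0.73 in females, an interaction of 2.83 ± 0.66, and Tmem35a differed by 3.0 in males and 0.90 in females, an interaction of 2.11 ± 0.48. Tnc differed by 3.10 in males and -0.01 in females, an interaction of 3.11 ± 0.54, and Zbtb40 differed by 3.12 in males and 1.89 in females, an interaction of 1.22 ± 0.27.

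In the other 13 genes the male difference was below the female one. Aqp1 differed by -1.04 in males and 0.13 in females, an interaction of -1.17 ± 0.27, and Deptor differed by -1.29 in males and 0.71 in females, an interaction of -2.0 ± 0.25. Dlg2 differed by -1.99 in males and -0.61 in females, an interaction of -1.39 ± 0.30, and Dusp1 differed by -1.95 in males and -0.20 in females, an interaction of -1.74 ± 0.31. Fam13a differed by -1.66 in males and 0.19 in females, an interaction of -1.84 ± 0.34, and Fgfr1 differed by -0.78 in males and 0.12 in females, an interaction of -0.89 ± 0.16. Hsd11b1 differed by -0.91 in males and 0.02 in females, an interaction of -0.93 ± 0.22, and Igfbp5 differed by -1.17 in males and 0.33 in females, an interaction of -1.5 ± 0.35. Klf9 differed by -0.98 in males and 0.22 in females, an interaction of -1.2 ± 0.23, and Oxtr differed by -1.26 in males and 0.17 in females, an interaction of -1.44 ± 0.32. Pdk4 differed by -0.80 in males and 1.24 in females, an interaction of -2.05 ± 0.44, and Sord differed by -0.71 in males and -0 in females, an interaction of -0.71 ± 0.15. Sult1e1 differed by -2.08 in males and 0.34 in females, an interaction of -2.42 ± 0.47. After quantile normalization 18 of the 23 interactions no longer passed. Without male replicates 10, 11 and 12 at 10 the interactions lost numbered 9, 13 and 13. Of these 23 interactions, 8 no longer passed without the arrays high in hepatocyte transcripts (female dose 0 replicate 1 and male dose 0 replicates 2 and 3), 16 without male dose 0 replicate 1 and 20 with the beta-actin covariate.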

How the results depend on the processing

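The 3 counts moved with the fit, and no alternative turned the direction of a named gene that had passed. The 5419 probe sets of male 10 against 0 became 940 at an unadjusted p under 0.05 with a difference of at least 1, and 3271 with the hepatocyte mean as a covariate. They became 2431 with hepatocyte and muscle means, 738 with the beta-actin difference, 8955 with array weights, 3541 after quantile normalization and 3513 among the more variable probe sets alone, fewer of which were tested. Leaving out 1 array gave 2685 to 5239. The 397 of the interaction became 650, 23, 3491 and 135 under the unadjusted rule, the beta-actin covariate, array weights and quantile normalization, with 76 to 510 when 1 array was left out. The 120 of male 10 against 1 became 215 with the 6 arrays alone, 210 with the 12 male arrays, 64 with the hepatocyte covariate, 14 with the beta-actin covariate, 845 with array weights and 47 after quantile normalization, with 34 to 116 when 1 array was left out. The cause was not tested. Of 126 named probe sets that passed at 10 against 0, 105 passed whichever of the 6 arrays was left out and 58 under every other fit too.

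Male and female arrays of 1 dose share replicate numbers, so the interaction was also fitted with the replicate number as a block, which called 443. Over 12 pairs, the correlation of deviations lay between -0.48 and 0.59 and was over 0.1 in 5, among them all 3 pairs at 0.1. The other 7 were not, so the numbers were not taken as pairs. No paired analysis was possible because the male groups share no replicate number, for 10 against 0 and 10 against 1.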
